A study of Mus musculus with 24 samples.

Results

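The 36 genes described here encode the core machinery of cell division: cyclins, cyclin-dependent kinases, their inhibitors, the E2F and retinoblastoma proteins, DNA replication factors and mitotic proteins. Accessible chromatin was mapped by ATAC-seq, a method that uses the Tn5 transposase to tag open DNA with sequencing adapters. The genes were chosen by name and not by a measured value, though with earlier results of these data known. Peaks of all 24 libraries were merged, regions called in 2 or more libraries were kept, and those overlapping a gene body or the 10 kb on either side were taken as its locus. All 36 names matched the RefSeq annotation of GRCm38.p6 (mm10), out of 34614 protein-coding and lncRNA genes used. Their loci held 520 of the 459616 kept regions, and 0 of the 520 were counted at more than 1 of the genes. Of these regions, 78 lay within 1 kb of a gene end and are called gene-end regions, 226 lay farther inside a gene body and 216 outside it, which gives 442 distal regions.

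The mice were male FVB/NJ, an inbred strain, with no genetic change or treatment named in the labels. Soleus and vastus intermedius, which the study calls slow-biased (richer in slow-contracting fibres), and gastrocnemius and vastus lateralis, called fast-biased, came from 3 adults and 3 litters of E18.5 fetuses (E for embryonic day), giving 8 groups of 3 libraries. Each adult or litter gave all 4 muscles, and a litter's muscle was pooled from up to 5 male embryos. The design text places the adults at P56 and the protocols at 3 to 4 months, which was not settled here. The nuclei came from undigested muscle, so every cell type in it could contribute, and fewer cells of a type cannot be told apart from less accessibility per cell. Dates attached to the lists differ between the stages (adult 1 and litter 1 each have their own, adults 2 and 3 share a date, as do litters 2 and 3), so date and stage cannot be told apart. The lists held 115333 to 228137 peaks, with a median of 162414 for adults and 169499.5 for litters. Each library either has a peak over a region or has none, and the lack of a peak is no proof that chromatin was closed.

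Progression through the cell cycle is driven by cyclins bound to cyclin-dependent kinases, which phosphorylate the retinoblastoma protein and so release E2F transcription factors to switch on genes for DNA synthesis. Genes used in G2 and mitosis are commonly controlled through a promoter element called the CHR (cell cycle genes homology region), bound by the DREAM and MuvB complexes, often beside CCAAT boxes bound by NF-Y. Muscle fibres are postmitotic and arise by fusion of myoblasts that have left the cell cycle, whereas progenitors and several other cell types of fetal muscle still divide.

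The sequences of 8 gene starts follow. All but Mki67 are the starts called more often at 1 stage in the comparison given below, and Mki67 is the usual marker of dividing cells. Each is the 300 bases from 250 before to 50 after the start, 5′ to 3′ on the gene's strand, from RefSeq GRCm38.p6. Capitals mark the E2F core (TTGGCGC or TTCCCGC), the CHR (TTTGAA or TTCGAA) and the CCAAT box (CCAAT) on either strand, and 0 of the printed bases lay in more than 1 such motif. The reference is of another strain than the mice.
Ccnb2, chr9:70421505-70421804, - strand: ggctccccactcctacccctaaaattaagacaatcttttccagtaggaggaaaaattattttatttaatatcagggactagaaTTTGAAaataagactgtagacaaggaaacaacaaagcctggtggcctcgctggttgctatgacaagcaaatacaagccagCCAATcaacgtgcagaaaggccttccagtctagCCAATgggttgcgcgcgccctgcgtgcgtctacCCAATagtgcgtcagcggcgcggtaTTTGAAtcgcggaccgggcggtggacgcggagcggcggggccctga
Bub1, chr2:127831810-127832109, - strand: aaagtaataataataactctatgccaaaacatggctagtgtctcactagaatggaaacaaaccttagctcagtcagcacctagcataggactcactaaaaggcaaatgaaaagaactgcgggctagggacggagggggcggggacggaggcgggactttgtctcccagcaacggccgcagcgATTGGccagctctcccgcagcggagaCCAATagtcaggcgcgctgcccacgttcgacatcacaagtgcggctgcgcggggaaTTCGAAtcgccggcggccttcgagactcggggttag
Bub1b, chr2:118597961-118598260, + strand: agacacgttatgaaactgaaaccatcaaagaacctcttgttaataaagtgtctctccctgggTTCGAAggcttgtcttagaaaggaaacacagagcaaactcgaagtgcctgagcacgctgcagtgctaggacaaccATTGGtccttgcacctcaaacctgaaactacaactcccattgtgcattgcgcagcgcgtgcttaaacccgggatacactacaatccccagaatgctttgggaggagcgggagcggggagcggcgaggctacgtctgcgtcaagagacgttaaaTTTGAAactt
Plk1, chr7:122159185-122159484, + strand: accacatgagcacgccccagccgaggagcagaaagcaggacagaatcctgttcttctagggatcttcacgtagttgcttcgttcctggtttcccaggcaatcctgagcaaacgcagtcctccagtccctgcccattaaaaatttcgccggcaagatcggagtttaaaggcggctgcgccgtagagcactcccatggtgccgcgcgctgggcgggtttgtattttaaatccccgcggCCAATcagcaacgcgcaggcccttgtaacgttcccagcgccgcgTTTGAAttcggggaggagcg
Tyms, chr5:30073576-30073875, - strand: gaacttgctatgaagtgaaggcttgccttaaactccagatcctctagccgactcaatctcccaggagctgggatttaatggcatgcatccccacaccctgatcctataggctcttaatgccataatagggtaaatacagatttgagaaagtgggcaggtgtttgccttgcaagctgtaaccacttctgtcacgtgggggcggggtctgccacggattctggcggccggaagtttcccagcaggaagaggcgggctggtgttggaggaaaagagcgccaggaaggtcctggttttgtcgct
Mki67, chr7:135716330-135716629, - strand: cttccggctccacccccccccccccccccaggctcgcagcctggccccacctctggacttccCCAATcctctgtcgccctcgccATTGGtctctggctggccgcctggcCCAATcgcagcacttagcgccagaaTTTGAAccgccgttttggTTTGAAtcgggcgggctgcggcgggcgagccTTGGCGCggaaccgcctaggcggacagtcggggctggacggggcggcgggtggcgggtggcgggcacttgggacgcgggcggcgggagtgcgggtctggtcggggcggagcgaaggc
E2f2 start 1, chr4:136172024-136172323, + strand: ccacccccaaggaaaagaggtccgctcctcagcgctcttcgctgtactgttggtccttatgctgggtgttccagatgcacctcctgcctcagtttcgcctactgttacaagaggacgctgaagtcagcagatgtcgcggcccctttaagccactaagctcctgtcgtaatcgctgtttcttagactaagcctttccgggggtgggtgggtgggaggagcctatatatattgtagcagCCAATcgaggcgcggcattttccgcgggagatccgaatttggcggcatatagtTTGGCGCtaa
E2f2 start 2, chr4:136180532-136180831, + strand: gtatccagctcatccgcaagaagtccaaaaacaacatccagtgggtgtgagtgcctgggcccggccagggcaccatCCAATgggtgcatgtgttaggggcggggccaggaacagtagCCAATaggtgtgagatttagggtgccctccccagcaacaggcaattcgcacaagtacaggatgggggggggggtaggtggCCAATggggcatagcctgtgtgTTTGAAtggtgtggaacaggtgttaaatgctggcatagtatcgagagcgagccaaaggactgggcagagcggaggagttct

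The table of gene starts held 33 starts of 28 of the 36 genes, with 2 starts for Ccnd3, E2f2, E2f3, Cdkn1a and Mcm7 and no entry for Ccna2, Ccnd1, Ccnd2, Ccne2, Rb1, Mcm4, Aurkb and Foxm1. On both strands, the E2F core was found in 11 of the 33 windows (33.3%, against 6.81% of the 32851 windows of all genes), and the CHR in 12 (36.4% against 19.2%). CCAAT was found in 23 (69.7% against 37.4%), and the GC box GGGCGG in 27 (81.8% against 35.7%). The E2F core stood in the windows of the replication licensing genes Mcm3, Mcm5, Mcm6 and Mcm7 and of Cdk2, Cdk1, Ccnb1, E2f3 start 1, E2f2 start 1 and Mki67. In the sequences above, Ccnb2, which encodes a mitotic cyclin, held 2 CHR matches and 3 CCAAT boxes. Bub1 held 1 and 2, Bub1b 2 and 1, and Plk1 1 and 1, and these 4 genes had 0 E2F cores. The Tyms window held 0 E2F cores, 0 CHR matches and 0 CCAAT boxes, so no letters of it are in capitals. The Mki67 window held 1 E2F core, 2 CHR matches and 3 CCAAT boxes. A match is a description of letters, not a binding site.

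Most cell cycle gene starts were open in both stages. In the full lists 21 of the 33 windows were covered by a peak in all 24 libraries, against 30.2% of all gene starts. These include those of Cdk1, Cdk2, Cdk4, Pcna, Rrm2, Aurka, Birc5 and Mki67, and both starts of E2f3. A gene end of Cstf1 lies within 1 kb of the Aurka start, of Cds2 near Pcna, of Gm36470 near Cdk6 and of Ap4m1 near Mcm7, and the Cdk2 start lies inside Pmel, so a peak there is shared. Only the upstream start of Cdkn1a, the gene of the inhibitor p21, was without a peak in every library, while its second start was called in all 24. The first start of Ccnd3, a D-type cyclin, was called in 5 adult and 8 E18.5 libraries, and its second start in 12 and 12. Of the 3 windows that could pass the test of 12 adult against 12 E18.5 libraries, 1 did. Ccnb2 was called in 6 adult and 12 E18.5 libraries (Fisher's exact test with Benjamini-Hochberg adjustment, p = 0.0479). Over all genes, 24.8% of the 6118 starts that could pass were called more often at E18.5 and 3.92% more often in the adult. The 12 libraries of a stage come from 3 animals or litters, so all p-values that compare libraries of the stages are too small.

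A stricter reading of the lists separated more gene starts. The lists carry no score, but their rows are not in genome order, and in 24 of 24 lists the peaks get narrower along the list, with median widths of 629 to 1073 bp near its top and 252 to 353 bp near its bottom (each list cut into 5 equal stretches, the first and last compared). The order is not explained in the sources used here. The first 20000 peaks of each list were therefore compared, a choice made after seeing the data. With them, 18 of the 33 starts were called in all 24 libraries, against 20.7% of all gene starts. Of the 8 windows that could pass, 6 were called more often at E18.5 and 1 in the adult. Over all genes the shares were 43.5% and 11.3% of 3991, so a stage difference at this depth was common across the genome and is not particular to cell cycle genes.

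The starts called more often at E18.5 were those of Ccnb2, Bub1, Bub1b, Plk1, Tyms and E2f2 (start 1). These genes are named because of their values. The Ccnb2 start had a peak in 0 adult and 12 E18.5 libraries, with 4 of 4 muscles in each litter (adjusted p = 1.37e-05, Fisher's exact test). Plk1, a kinase that drives mitotic entry and spindle assembly, was called in 3 and 12 libraries, and Bub1b, which encodes the spindle checkpoint protein BubR1, also in 3 and 12 (adjusted p = 0.00131 for each, Fisher's exact test). Bub1, a checkpoint kinase, and Tyms, the thymidylate synthase that makes dTMP for DNA synthesis, were each called in 1 adult and 10 E18.5 libraries (adjusted p = 0.00226, Fisher's exact test). Each muscle at E18.5 had the Ccnb2, Bub1b and Plk1 starts in 3 of 3 libraries. In the adult, Plk1 was found in 0 of 3 soleus libraries and 1 of 3 of each other muscle, and Bub1b in 1 of 3 soleus, 0 of 3 vastus intermedius, 0 of 3 gastrocnemius and 2 of 3 vastus lateralis libraries. Top2a, a topoisomerase needed to untangle sister chromatids, was called in 7 adult and 12 E18.5 libraries and missed the threshold (adjusted p = 0.0585, Fisher's exact test). Leaving out any adult or litter ended none of the Ccnb2, Plk1, Bub1b, Bub1 and Tyms calls. By animal, Top2a was called in 0, 3 and 4 of the 4 muscles of adults 1, 2 and 3.

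The starts of E2f2, an activator E2F, were called in opposite directions. Start 1, chr4:136172024-136172323, was called in 1 adult and 7 E18.5 libraries (adjusted p = 0.0496, Fisher's exact test), and start 2, chr4:136180532-136180831, in 12 adult and 5 E18.5 libraries (adjusted p = 0.011). By animal, start 1 was called in 0, 0 and 1 of the 4 muscles of the adults and in 3, 3 and 1 of those of the litters. For start 2 the values were 4, 4 and 4 against 2, 2 and 1. The start 1 call passed in 3 of 14 alternatives and was lost without adult 1, adult 2, litter 1 or litter 2. The start 2 call passed in 10 of 14. In the full lists start 2 was called in 12 and 12 libraries and start 1 in 8 and 12.

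**Figure D1:**
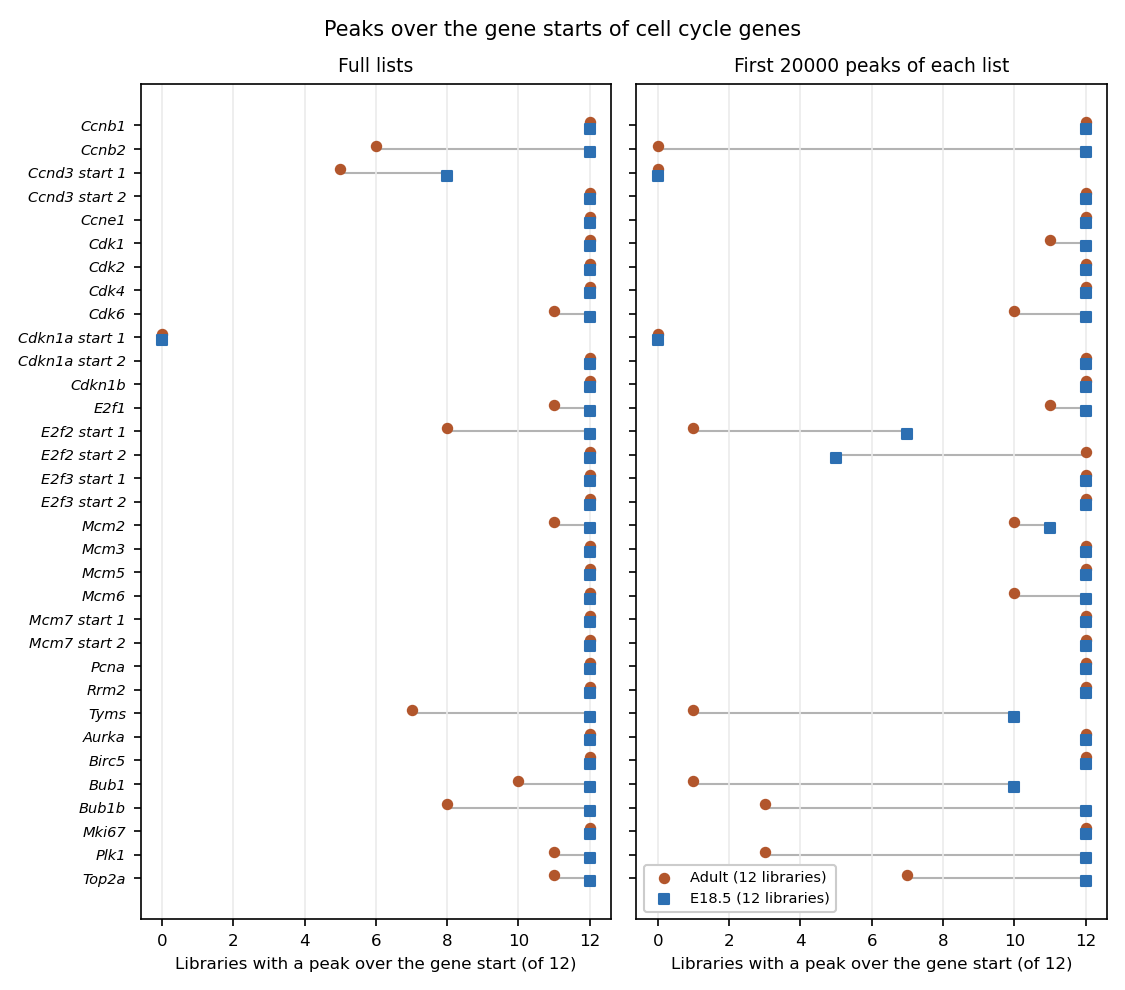
Number of libraries, of 12 per stage, with a peak over each gene start (x axis) for the 33 starts of 28 cell cycle genes (y axis), in the full lists and in the first 20000 peaks of each list. Circles are adult and squares E18.5. Most starts sit at 12 for both stages, and with the first 20000 peaks Ccnb2 lies at 0 adult and 12 E18.5 libraries while E2f2 start 2 lies at 12 and 5.

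How many peaks were read decided which starts differed. With the first 10000 peaks, 12 of the 33 starts could pass. Of these 12, 7 were called more often at E18.5 and 1 in the adult, against 29.7% and 13.6% of 4080 starts of all genes that could pass. Top2a was then called in 0 adult and 12 E18.5 libraries (adjusted p = 2.7e-05, Fisher's exact test), Plk1 in 0 and 10 (adjusted p = 0.000578) and Mki67 in 4 and 12 (adjusted p = 0.00549). Mcm6, a subunit of the replicative helicase, was called in 3 and 12 (adjusted p = 0.00195, Fisher's exact test), Cdk6 in 4 and 12 (0.00549) and Mcm5, another helicase subunit, in 6 and 12 (0.0317). E2f3 start 2, called in 4 and 11 (0.0261), was the last of these, and E2f2 start 2 was called in 6 adult and 0 E18.5 libraries (0.0317). With the first 5000, Mki67 was called in 0 adult and 12 E18.5 libraries (adjusted p = 3.8e-05, Fisher's exact test), Mcm6 in 0 and 8 (0.00557) and Ccnb1, the mitotic partner of Cdk1, in 1 and 8 (0.0267). Those 3 starts were the only ones to pass at that depth, of 14 that could. Of the 3882 starts of all genes that could pass there, 24% were called more often at E18.5 and 19% more often in the adult. The starts of Cdk4, Cdkn1b, Pcna and E2f3 start 1 were called in 12 and 12 libraries even there. Going the other way, 4 starts could pass with the first 50000 peaks. Of these 4, 3 were called more often at E18.5 and 0 in the adult, against 41.6% and 7.9% of all starts that could pass. With the first 100000 the counts were 1 and 0 of 5 that could pass, against 33.6% and 5.32%.

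**Figure D2:**
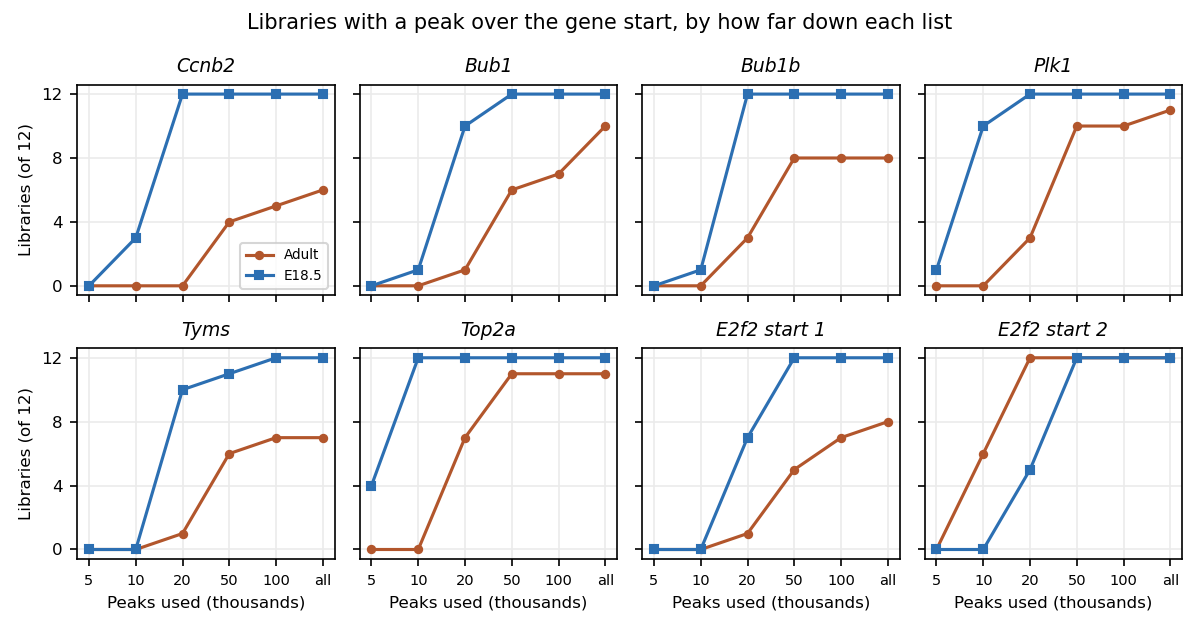
Libraries of 12 per stage with a peak over the gene start (y axis) against how many peaks from the top of each list were read (x axis, in units of 1000 peaks, unequal steps), for 8 starts. The E18.5 line (squares) lies at or above the adult line (circles) in every panel except E2f2 start 2, and the 2 meet or nearly meet in the full lists for Plk1, Top2a and E2f2 start 2.

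By region, the stage comparison found 10 of the 520 regions called more often at E18.5 and 0 called more often in the adult (Fisher's exact test, adjusted over all regions that could pass). Among all 170267 kept regions that could pass, 4.55% were called more often at E18.5 and 1.55% in the adult, and 207 regions of the cell cycle genes could pass, so their share at E18.5 is near that of the genome. All 10 were distal: of the 78 gene-end regions 25 could pass and 0 did, and at an unadjusted p under 0.05 there were 3 toward E18.5 and 0 toward the adult. Of the 442 distal regions 182 could pass, and at an unadjusted p under 0.05 there were 35 toward E18.5 and 5 toward the adult. No share of all kept regions is given here by class or at an unadjusted p, so these counts cannot be set against the genome. Gene-end regions were called in a median of 13.5 libraries and distal ones in 5, and 25 of the 36 genes had a gene-end region in all 24 libraries. On average 56.8% of adult libraries and 61.2% of E18.5 libraries called a gene-end region, and 27% and 34.7% a distal one. For these medians, counts and shares no value over all genes is given here, so none is read as particular to cell cycle genes. In 44 of the 520 regions every litter had more muscles with a call than every adult, and in 9 every adult had more than every litter, against 5.54% and 3.19% of all kept regions. Without adult 2 the count called more often at E18.5 was 6, and without litter 1 it was 5. With as many peaks drawn at random from each list as the shortest holds it was 3, namely the Ccnd2 region, the Cdk6 region at 35543 bp and the Mki67 region outside the gene, all given below. For these alternatives no share of all kept regions is given here.

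**Figure D3:**
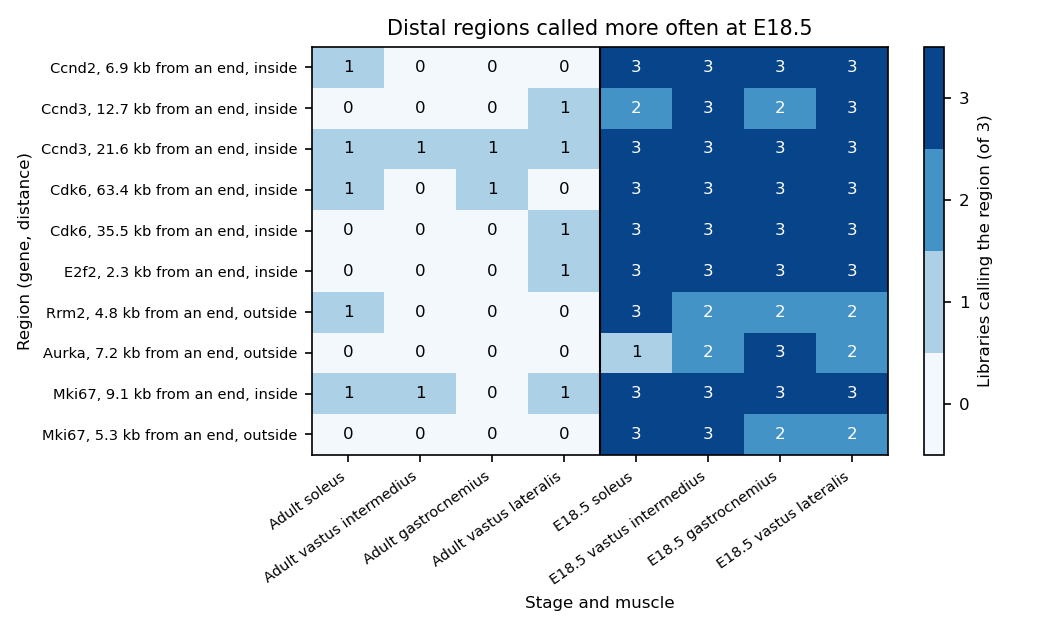
Number of libraries, of 3 per stage and muscle, that called each of the 10 distal regions called more often at E18.5 (colour and printed number). The vertical line parts the 4 adult from the 4 E18.5 groups, and no adult group exceeds 1 library of 3.

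Among the cyclins, the D-type genes, whose products link growth signals to the cell cycle, carried 3 of the 10 regions. In Ccnd2 the region chr6:127132087-127134685, 6925 bp inside the gene body from the nearer end, was called in 1 adult and 12 E18.5 libraries (adjusted p = 0.00113, Fisher's exact test). The adult call came from a soleus of adult 3, and the call passed in 15 of 15 alternatives. The Ccnd2 locus, with 17 regions, had on average 4.5, 4.25 and 4.75 called regions per muscle in adults 1 to 3, and 7, 7.25 and 6.5 in litters 1 to 3. The 3 litters all lay above the 3 adults, and the means were 4.5 ± 0.25 and 6.92 ± 0.382 (SD, n = 3 each, exact permutation p = 0.1, the smallest possible). Distal regions accounted for 3.33 of the adult and 5.25 of the E18.5 mean.

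Ccnd3 held 48 regions, 40 of them distal inside the gene body. The regions chr17:47517742-47518516 and chr17:47526639-47528217 were called in 1 and 10 and in 4 and 12 adult and E18.5 libraries (adjusted p = 0.0168 and 0.0266, Fisher's exact test). For the second, each adult muscle gave 1 call of 3 and each E18.5 muscle 3 of 3. These calls passed in 10 of 16 and 8 of 17 alternatives. Neither passed without adult 2, litter 1 or litter 2, nor the first without adult 1, nor the second without adult 3 or litter 3. The locus had 12.2, 14 and 11.2 called regions per muscle in the adults and 23, 20.2 and 14 in the litters, so litter 3 equalled adult 2 and the stages met. In 14 of 16 alternatives all litters lay above all adults at Ccnd3, and in 0 the reverse. The exceptions were the replicate block and leaving out litter 1. Ccnd1, whose product also pairs with Cdk4 and Cdk6, had 5, 5.25 and 5.5 in the adults and 5.75, 5.25 and 4 in the litters, which overlapped.

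The mitotic cyclin gene Ccnb1 had 2.75, 2.25 and 2.25 called regions per muscle in the adults and 2.25, 2.75 and 2.75 in the litters, with overlap. Of the E-type cyclins, which start DNA synthesis with Cdk2, Ccne1 had 2.5, 2.75 and 1.75 in the adults and 3.5, 4 and 3.25 in the litters, which did not overlap. It is named for that reason, after its values were seen. The loci of Ccna2, Ccnb2 and Ccne2 overlapped between the stages, with adult means of 1.25, 2.75 and 1.75 and E18.5 means of 1.25, 4.17 and 2.42.

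Of the kinase genes, Cdk6, which acts with D-type cyclins in G1, held 2 regions called more often at E18.5. Region chr5:3494018-3495465, 35543 bp inside the gene, was called in 1 adult and 12 E18.5 libraries (adjusted p = 0.00113, Fisher's exact test) and passed in 15 of 16 alternatives. Region chr5:3404419-3405896, 63415 bp inside and also within the lncRNA gene Gm29868, was called in 2 and 12 (adjusted p = 0.00415, Fisher's exact test) and passed in 15 of 17. The Cdk6 locus as a whole, the largest here with 61 regions, had 14.8, 16.2 and 13.8 called regions per muscle in the adults and 25.2, 17.8 and 13.8 in the litters. Litter 3 equalled the lowest adult, and the 38 regions of the gastrocnemius of litter 1 stood far above the 12 to 18 of the other fast-biased E18.5 libraries. That list held 211354 peaks, toward the upper end of the range, and the part of list length was not tested there.

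Cdk1, the kinase of mitotic entry, had 3.5, 4.5 and 3.75 called regions per muscle in the adults and 5.75, 6.5 and 5.5 in the litters, all litters above all adults. With the first 20000 peaks the Cdk1 difference was 0.417 regions toward the adult, the opposite direction. There a region 8119 bp outside the gene, chr10:69326091-69327027, was called in 6 adult and 0 E18.5 libraries (adjusted p = 0.0278, Fisher's exact test, named after its value was seen). It lies within 1 kb of an end of 4930423B08Rik, and in the full lists the region there was called in 11 adult and 12 E18.5 libraries. Cdk2, the S-phase kinase, had 2.5, 2.25 and 2.25 against 2.75, 3 and 3, without overlap, a separation found in 10 of 16 alternatives. Cdk4, the other G1 kinase, had 4, 3.5 and 3.75 in the adults and 4, 3.75 and 3.5 in the litters, the same mean of 3.75.

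In the E2F and retinoblastoma group, E2f2 held the region chr4:136174538-136175373, 2264 bp inside the gene from its first start, called in 1 adult and 12 E18.5 libraries (adjusted p = 0.00113, Fisher's exact test). It passed in 14 of 17 alternatives. The E2f2 locus had 8, 9 and 8 called regions per muscle in the adults and 10.2, 11.2 and 9.5 in the litters, without overlap (means 8.33 ± 0.577 and 10.3 ± 0.878, SD, n = 3 each, exact permutation p = 0.1). E2f1, the first described activator E2F, had 5.25, 5.75 and 6.25 against 8.5, 7.25 and 5, and E2f3 had 8, 9.25 and 8.25 against 9, 9 and 6.75. Rb1, the gene of the retinoblastoma protein that restrains E2F, had 7, 4 and 4.5 against 7.75, 6.5 and 5.75. In these 3 genes the stages overlapped, and litter 3 was the lowest of the litters in each.

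The inhibitor genes showed no region past the threshold by stage. Cdkn1a had 5.5, 4.75 and 4.75 called regions per muscle in the adults and 6.25, 5 and 4.75 in the litters. Cdkn1b, which encodes p27, the inhibitor that holds quiescent cells out of the cycle, had 3, 3.25 and 2.5 against 2.5, 2.5 and 2.25. The stages overlapped at Cdkn1a and touched at 2.5 at Cdkn1b.

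Among the replication genes, Rrm2, the ribonucleotide reductase subunit that limits dNTP supply, had a region 4751 bp outside the gene, chr12:24702513-24703503, called in 1 adult and 9 E18.5 libraries (adjusted p = 0.0453, Fisher's exact test). This call passed in only 5 of 16 alternatives, and leaving out adult 1, 2 or 3 or litter 1 or 2 ended it. The Rrm2 locus had 3.75, 4 and 4 called regions per muscle in the adults and 5.5, 6.25 and 6 in the litters, without overlap (means 3.92 ± 0.144 and 5.92 ± 0.382, SD, n = 3 each, exact permutation p = 0.1). Pcna, the sliding clamp of DNA polymerase, was open at both stages alike: its 2 gene-end regions were called in all 24 libraries, and the locus had 4.75, 4.25 and 3 against 3.75, 4 and 4.

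The Mcm genes encode subunits of the helicase that is loaded at origins before DNA synthesis. Mcm3 had 1.75, 2.5 and 1.75 called regions per muscle in the adults and 4.5, 5.75 and 2.25 in the litters, so litters 1 and 2 lay above every adult and litter 3 did not. Mcm7 had 4, 4 and 3.5 against 5, 4.75 and 4.5, without overlap, as in 9 of 16 alternatives, and its start lies within 1 kb of an end of Ap4m1. The stages overlapped for Mcm2 (6.25, 6 and 6.25 against 6, 6.5 and 5.5), Mcm5 (5.25, 5.5 and 6.5 against 6.75, 6.25 and 5.25) and Mcm6 (2.75, 3 and 3 against 2.75, 3.25 and 3.75). Mcm4 and Tyms also overlapped, with adult means of 1.75 and 3 and E18.5 means of 2.17 and 3.25.

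Among the mitotic genes, Mki67, which encodes the proliferation antigen Ki-67, found on the surface of mitotic chromosomes, differed most in called regions. A region 5301 bp outside the gene, chr7:135721751-135722798, was called in 0 adult and 10 E18.5 libraries (adjusted p = 0.00415, Fisher's exact test), and a region 9145 bp inside it, chr7:135698929-135700042, in 3 and 12 (adjusted p = 0.0113). The 2 calls passed in 13 of 15 and 13 of 16 alternatives, and the second was lost without litter 1 or litter 2. The locus had 4.75, 4 and 5 called regions per muscle in the adults and 9, 8 and 7.25 in the litters, with no overlap and means of 4.58 ± 0.52 and 8.08 ± 0.878 (SD, n = 3 each, exact permutation p = 0.1). Over the 12 libraries of a stage the lowest, median and highest values were 2, 4.5 and 10 for adults and 6, 8 and 10 for litters, the adult 10 being the soleus of adult 3. The difference lay in the distal regions, with a mean of 3.25 in adults and 6.92 in litters, while gene-end regions went the other way at 1.33 and 1.17.

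Aurka, the kinase of centrosomes and spindle poles, had a region 7186 bp outside the gene and inside Fam210b, chr2:172348164-172349004, called in 0 adult and 8 E18.5 libraries (adjusted p = 0.0266, Fisher's exact test). It passed in 6 of 16 alternatives, and leaving out any adult, litter 1 or litter 3 ended it. The Aurka locus overlapped between stages, with 6.75, 5.5 and 5.75 against 7.25, 6.25 and 5.75. Top2a had 4, 3.25 and 2.75 against 4.25, 5 and 3.5 and also overlapped. Plk1 had 3.25, 3 and 4 against 4.25, 5 and 5, without overlap. With adult 2 left out and the minimum of 2 libraries applied again, the Plk1 stages overlapped. The Plk1 separation was found in 9 of 16 alternatives. Aurkb, Bub1, Bub1b, Birc5 and Foxm1 overlapped, with adult means from 3.17 to 4.75 and E18.5 means from 3.42 to 5.75.

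Aurkb, the kinase of the chromosomal passenger complex, had calls in both directions when the lists were read in part, and it is named because of its values. With the first 20000 peaks its gene-end region chr11:69045277-69046795 was called in 1 adult and 12 E18.5 libraries, and a region 7717 bp outside the gene, chr11:69036768-69037907, in 11 adult and 0 E18.5 libraries (adjusted p = 9.16e-05 for each, Fisher's exact test). The second region lies within 1 kb of an end of Ctc1. In the full lists neither passed, with the gene-end region called in 9 and 12 libraries (Fisher's exact test, unadjusted p = 0.217) and the outer one in 12 and 12. With the first 20000 peaks, 12 of the 28 cell cycle regions that could pass were called more often at E18.5 and 3 in the adult, against 28.6% and 20.9% of 17528 regions of the genome. The 3 adult regions were that one, the Cdk1 region above and the E2f2 region over start 2.

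Over all 36 loci, 9 had every litter above every adult in called regions per muscle and 0 had every adult above every litter. They were Ccnd2, Ccne1, Cdk1, Cdk2, E2f2, Mcm7, Rrm2, Plk1 and Mki67. Over the 32827 genes with a kept region at the locus, 13.9% had the litters above and 5.19% the adults above. The E18.5 mean was higher in 27 loci and the adult mean in 6, the means of Ccna2, Cdk4 and Bub1 being equal, and the median difference, adult minus E18.5, was -0.5 regions, against -0.25 over all genes, of which 61.4% were higher at E18.5. With 3 against 3, no exact permutation p can fall under 0.1. Without litter 3 the count of loci with all litters above was 16. With counts scaled to 100000 called regions per library it was 8, Cdk2, Mcm7 and Plk1 then overlapped, and 2 loci had the adults above. No share of all genes is given here for these settings. With fewer litters a separation is easier to reach at any locus, so the 16 cannot be set against the 13.9%.

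**Figure D4:**
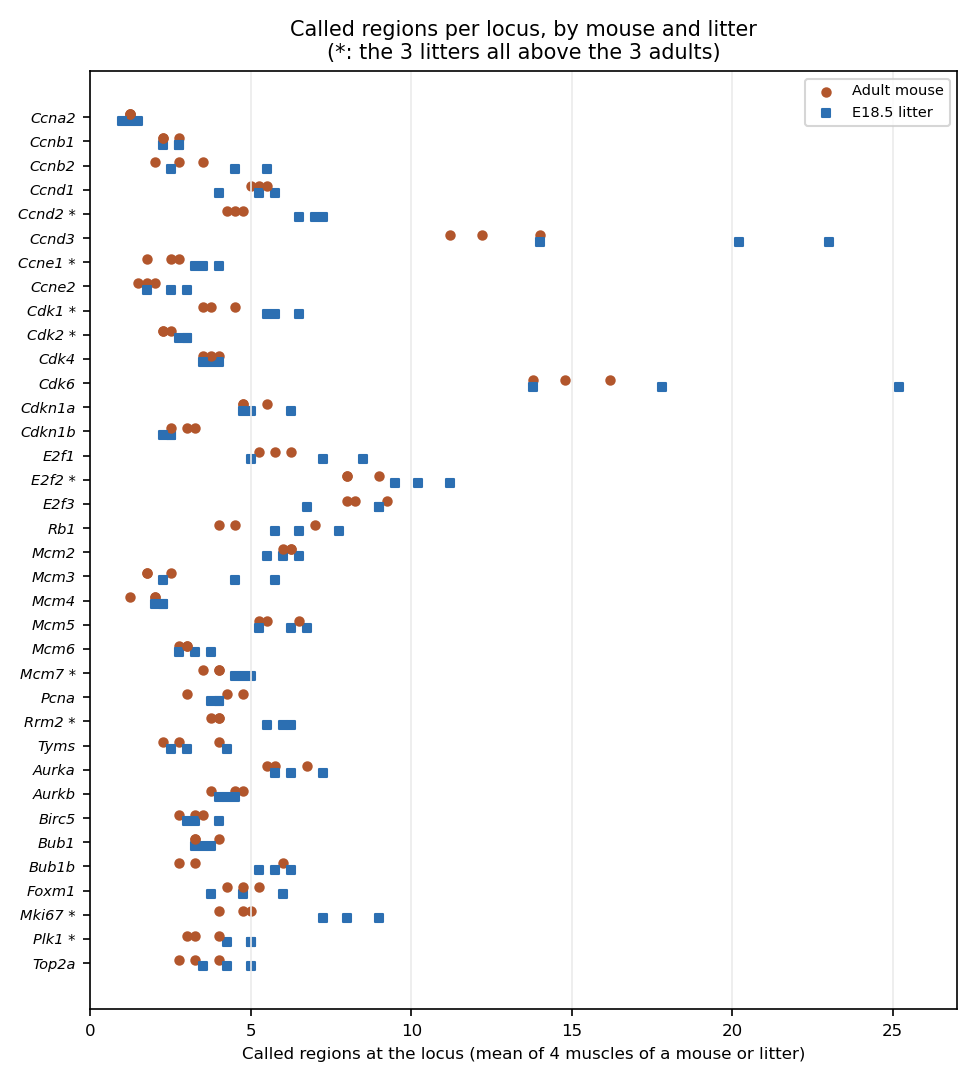
Called regions at each locus (x axis, mean of the 4 muscles of an adult mouse or a litter) for the 36 genes (y axis). Circles are the 3 adults and squares the 3 litters, with an asterisk where all litters lie above all adults, as for Mki67 with 4 to 5 in the adults and 7.25 to 9 in the litters.

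The comparison of fibre bias asked whether cell cycle loci differed between slow-biased and fast-biased muscles. No region passed at either stage (Fisher's exact test, adjusted p, 0 of 48133 adult and 0 of 49905 E18.5 regions of the genome). At an unadjusted p under 0.05, 1 of the 50 cell cycle regions that could pass did in adults and 1 of 68 in litters, against 3.35% and 0.826% of all. They are a region 4723 bp outside Cdk4 and inside Marchf9, chr10:127058123-127058812, called in 0 slow-biased and 5 fast-biased adult libraries of 6, and a region inside Mcm5, chr8:75114130-75115150, called in 0 and 5 at E18.5 (p = 0.0152 for each, Fisher's exact test). The first was called in 4 and 4 libraries at E18.5, and the second in 0 and 3 adult libraries. Among gene starts with the first 20000 peaks, 1 could pass in adults and 2 in litters, and 0 did at an unadjusted p under 0.05, against 7.09% and 0.369% of all.

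Of the loci, 0 passed the adjusted threshold in either stage (exact permutation test of 6 against 6 libraries). The lowest adjusted p among the cell cycle genes was 0.636 for adults and 1 for litters. At an unadjusted p under 0.05 the adult count was 1 toward fast-biased and 0 toward slow-biased muscles, against 6.82% and 0.308% of all genes. E2f2 had 8, 9 and 7 called regions in adult soleus, 6, 7 and 6 in vastus intermedius, 7, 9 and 10 in gastrocnemius and 11, 11 and 9 in vastus lateralis. Vastus lateralis was the highest and vastus intermedius the lowest, and gastrocnemius overlapped with soleus (slow-biased 7.17 ± 1.17, fast-biased 9.5 ± 1.52, SD, n = 6 each, exact permutation p = 0.0303, adjusted p = 0.636). The average list length was 153684 peaks in adult slow-biased and 179502 in adult fast-biased libraries. With counts per 100000 called regions the E2f2 difference no longer reached an unadjusted p of 0.05, nor did it without adult 1, 2 or 3. With labels permuted within each animal, the replicate block, 2 loci had an unadjusted p under 0.05, E2f2 and Rb1 (exact permutation p = 0.037 for each), against 6.18% of all genes.

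Rb1 had 7, 3 and 4 called regions in adult soleus, 5, 4 and 2 in vastus intermedius, 9, 5 and 5 in gastrocnemius and 7, 4 and 7 in vastus lateralis, with overlap between the biases (exact permutation p = 0.117 without the block). Mcm5 had 5, 5 and 5, then 2, 4 and 6, then 5, 9 and 6, then 9, 4 and 9 in the same order, and its biases overlapped (exact permutation p = 0.0823). Mcm6 went the other way, with 3.83 ± 1.6 regions in the slow-biased muscles of the adult and 2 ± 0.894 in the fast-biased ones (SD, n = 6 each, exact permutation p = 0.0584), and 5, 4 and 6 in soleus. In the adult the fast-biased mean was higher in 22 of the 36 loci, beside 66.3% of all genes.

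At E18.5 1 locus was higher in slow-biased and 1 in fast-biased muscles at an unadjusted p under 0.05, against 0.253% and 0.871% of all genes. Both are named after their values were seen. Ccne2 had 3.17 ± 0.983 regions in soleus and vastus intermedius together and 1.67 ± 0.816 in the fast-biased pair (SD, n = 6 each, exact permutation p = 0.0411, adjusted p = 1). Mcm7 had 4.17 ± 0.753 and 5.33 ± 0.516 (SD, n = 6 each, exact permutation p = 0.0325, adjusted p = 1). Within the litters the p was 0.0278 for Ccne2 and 0.0556 for Mcm7 (exact permutation test with the replicate block, under which 1.06% of all genes had a p under 0.05). The fast-biased mean was higher in 25 of the 36 loci at E18.5, beside 50.2% of all genes. In 0 of the 36 did all adults and all litters show opposite signs of the slow minus fast difference, beside 0.695% of all genes.

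Other cell cycle genes, a list of 73 that holds further replication, mitotic and regulatory genes, gave 72 matches and 775 regions, of which 250 could pass the stage test. In them 5 regions were called more often at E18.5 and 5 in the adult, against 4.55% and 1.55% of all 170267 regions that could pass. Toward the adult were regions at Tk1 (thymidine kinase, 12 adult and 2 E18.5 libraries), Tpx2 (a spindle assembly factor, 12 and 4), Cdc25a (a phosphatase that activates Cdk2, 12 and 3), Ube2c (a ubiquitin-conjugating enzyme of mitotic exit, 10 and 0) and Tfdp1 (an E2F partner, 8 and 0). The Tk1 start went the other way, with 3 adult and 12 E18.5 libraries in the full lists (adjusted p = 0.00445, Fisher's exact test). Among the 70 starts of these genes, 2 could pass there and only that of Tk1 did. Over all genes 24.8% of 6118 were called more often at E18.5. With the first 20000 peaks the Tk1 start was called in 0 and 1 libraries. The Ube2c region, chr2:164771077-164773872, was a gene-end region (adjusted p = 0.00415, Fisher's exact test) but did not cover the gene start. The Ube2c start was called in 12 adult and 12 E18.5 libraries in the full lists. With the first 5000 peaks it was called in 2 and 11 (adjusted p = 0.00337, Fisher's exact test). Toward E18.5 were regions at Cdc25a (3 and 11), the repressor E2F genes E2f7 (2 and 12) and E2f8 (1 and 12), Tfdp2 (0 and 8) and Cdkn1c, the imprinted gene of the inhibitor p57 (1 and 12). Of the 72 loci, 12 had all litters above all adults and 3 the reverse, against 13.9% and 5.19% of all genes. With the first 20000 peaks, 10 of the 70 starts of 58 of these genes could pass and 4 were called more often at E18.5. They were Espl1 (separase, 2 and 12 libraries), Racgap1 (cytokinesis, 6 and 12), E2f8 (6 and 12) and Cdkn2a start 1 (2 and 11). Of these starts, 0 were called more often in the adult. Over all genes the shares were 43.5% and 11.3% of the 3991 starts that could pass. Cdkn2a encodes p16 and p19, and its start 2 was called in 0 and 0 libraries at this depth.

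Cell type markers were read at gene starts in the same lists. The starts of 8 muscle fibre genes (Acta1, Ckm, Ttn, Des, Myh1, Myh2, Myh4, Myh7) had a peak in 76.9% of adult libraries and 38% of E18.5 libraries on average, and in 58.3% and 11.1% with the first 20000 peaks. At that depth Acta1, Ckm and Ttn were each called in 12 adult and 0 E18.5 libraries and Des in 12 and 12. Starts of myogenic regulators (Pax7, Myf5 and Myog, 3 of 4 markers in the table) were called in 77.8% and 94.4%, and in 36.1% and 25% with the first 20000. At that depth Pax7 was called in 1 adult and 8 E18.5 libraries and Myog in 10 and 1 (adjusted p = 0.0215 and 0.00226, Fisher's exact test). The pooled share thus joins calls in opposite directions. Cartilage and tendon starts (Acan and Tnmd, 2 of 4) were called in 16.7% and 45.8%, Tnmd at 0. The endothelial start (Kdr, 1 of 3) was called in 100% and 100%, erythroid starts (2 of 3) in 29.2% and 45.8%, adipocyte starts (2 of 2) in 4.17% and 0%, and the starts of Pdgfra (fibroblast, 1 of 3 markers) and of Lyz2 and Ptprc (immune, 2 of 3) in 0% and 0%. With the first 20000 peaks the shares were 83.3% and 100% for Kdr and 0% and 12.5% for cartilage and tendon starts. For the erythroid and adipocyte starts they were 0% and 0%. In the full lists the shares of the fibre, myogenic regulator, cartilage and erythroid markers differed between the stages beside the cell cycle calls. With the first 20000 peaks that of Kdr differed too. The part of these markers in the stage differences was not tested.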

How the data were processed

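ATAC-seq peak lists of 24 libraries, 1 per library, were deposited by the authors with chromosome, start and end on mm10, and the values used are these deposited peak coordinates, with no score, count or signal. MACS2 2.1.1, Bowtie2 2.4.4, Picard, bedtools 2.25.0, SAMtools 1.14.0, FastQC 0.11.5 and Trimmomatic 0.39.0 are listed, with no role, per the submitters' processing notes. Not given in the sources used here were thresholds, read depths and any shift of reads for the transposase, and depth could be judged by list length alone. The members and gene lists were chosen with earlier results of these data known.

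Peaks were merged with Python 3.11.15, numpy 2.4.6 and pandas 2.3.3 into 930761 regions, the number that bedtools 2.31.1 merge gave. Regions called (at least 1 bp of overlap) in 2 or more libraries were kept. RefSeq gene bodies have no strand or exons in the table used, so exons, introns and UTRs were not told apart. Fisher's exact test (two-sided, scipy 1.17.1) compared libraries per region or gene start, with Benjamini-Hochberg adjustment over all features whose number of calls could pass 0.05, and 0.05 as threshold. Locus counts were compared by exact permutation, two-sided, over 3 adults and 3 litters, or over 6 slow-biased and 6 fast-biased libraries of a stage. The region code was tested on simulated data. No 2 lists were identical (0 pairs).

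The 4 muscles of a number come from the same adult or litter, per the labels, which pairs muscles within a stage. Adult and litter numbers mark different animals and pair nothing across stages. Values are printed for genes with a region past a threshold, the 5 per direction with the largest stage difference, the 3 per direction with the largest adult fibre bias difference, and 15 chosen by name. Other genes are given by range, or named where said, after their values were seen. Alternatives changed the overlap, the library minimum, list length, flank, gene-end distance, scaling, blocking and the replicates used. Reading the first peaks of each list, and the comparison of gene starts, were chosen after seeing the data.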

Additional observations from a re-analysis of the deposited data

Results flagged for a closer look

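Called regions per locus were screened in 140 groups of 6 libraries (a stage and a fibre bias) for a library standing apart by Dixon's test. The test flags about 1 in 20 groups by chance for continuous values, and 16 stood out. That rate does not apply to small tied counts: in 5 of the 16 (Ccne2, Cdk2, Mcm4, Pcna and Aurkb) the other libraries were equal and the library differed by 1 region. The value of the library is given beside the range of the other 5.

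At E18.5 the gastrocnemius of litter 1 had 38 regions at Cdk6, the others 12 to 18, and 11 at Rb1, the others 5 to 6. The vastus intermedius of litter 1 had 7 at Cdkn1a, the others 4 to 5, and 3 at Pcna, the others 4. The vastus lateralis of litter 3 had 4 at Cdk1, the others 6 to 7, and 6 at Mcm6, the others 2 to 3. At Mcm6 the soleus of litter 1 had 1, the other slow-biased libraries 3 to 4. The gastrocnemius of litter 2 had 1 at Mcm4, the others 2, and that of litter 3 had 3 at Plk1, the others 5 to 6. The soleus of litter 3 had 5 at Aurkb, the others 4.

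In the adult the soleus of adult 2 had 11 regions at Bub1b, the other slow-biased libraries 1 to 3. The gastrocnemius of adult 1 had 1 at Ccne2 and 3 at Cdk2, where the others had 2. The vastus lateralis of adult 1 had 7 at Cdkn1a, the others 4 to 5, and 3 at Foxm1, the others 5 to 6. The vastus intermedius of adult 1, the shortest list with 115333 peaks, had 2 at Rrm2, the others 4 to 5.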

How the results depend on the processing

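Of the alternatives for summary counts, 150 stayed within 1.5 times the reported count and 46 moved. The 10 regions called more often at E18.5 became 3 with the same number of peaks drawn from each list, 22 with a 50 kb flank and 17 with the first 50000 peaks, and 5 to 11 when an adult or a litter was left out. The 0 called more often in the adult became 4 with the 50 kb flank and 3, 2 and 1 with the first 20000, 50000 and 100000 peaks. The 9 loci with all litters above all adults became 9 to 16 when an adult or litter was left out. The 0 loci the other way became 2 with a 5 kb flank, 2 per 100000 called regions, 3, 2 and 2 with the first 20000, 50000 and 100000 peaks, and 0 to 2 when an animal was left out. Gene-end regions numbered 138 within 2.5 kb, of which 1 passed the stage test. A wider flank takes in more regions, and leaving out an animal makes a separation of loci easier to reach. No share over all regions or genes stands beside the counts in this section, so they do not show a stronger or weaker result than the genome. The 6 gene starts called more often at E18.5 became 3, 3, 1 and 1 with the first 5000, 50000 and 100000 peaks and the full lists, and the 1 called more often in the adult became 0 in each of these.

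Loci with an unadjusted p under 0.05 for fibre bias numbered 1 for adults and 2 for litters. In adults they became 3 with 50% cover, 2 with regions called in 4 or more libraries, 0 with the same number of peaks, 3 and 4 with flanks of 5 and 50 kb, 4 per 100000 called regions, and 0 without any of the adults. At E18.5 they became 0, 0, 1, 1, 0 and 4 in the same order, and 0 to 1 without any of the litters. With the replicate block, which pairs the muscles of an animal, they were 2 and 1 (exact permutation p of at least 0.00926 possible). The replicate block moved no other summary count by over 1.5 times, with 11 regions and 9 loci toward E18.5, and the smallest exact p possible by stage was then 0.25.

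These values cover single genes, regions and starts, and the genome-wide counts beside them. Of them 703 kept their state, called or not, or stayed within 1.5 times. Another 66 gained a call, 122 lost it and 93 moved in another way. The Cdk1 locus was the 1 called value to change sign (0.417 regions toward the adult with the first 20000 peaks). Locus differences that were not called changed sign more often, in 8 of 16 alternatives at Aurkb, 6 at Aurka, Foxm1, Mcm2 and Pcna, and 5 at Birc5. The cause of these shifts was not tested. Read depths are unknown, which limits how far a missing call can be read.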
